A study of Ictalurus punctatus with 14 samples.

Results

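A pair of genes was followed through the early development of channel catfish, *Ictalurus punctatus*, out of 23231 genes counted in the study. The 2 members were gdf10a (gene identifier 108262421) and a gene that the study named FOXA2 (gene identifier 108257557), taken by identifier from the deposited table of counts. The study had picked both as hub genes of a co-expression module tied to 2 days post fertilization (dpf), and it had built that network on these same libraries. Their high level at 2 dpf is therefore a description here and was not tested, and the stages after 5 dpf, which also entered the network, are not fully apart from the choice.

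The fish were of the Kansas random strain, an old domestic line of channel catfish, and came from artificially spawned brood stock. Whole embryos or larvae were collected at 2 dpf and then daily from 5 to 10 dpf, with 2 replicate pools of animals per stage and 14 libraries in all. No allele set the groups apart. The eggs received treatments, not named in the methods, that ended before hatching, and their part cannot be told apart from age. The sex of the fish was not known, and the fry were fed from 7 dpf on. Ribosomal RNA was removed before the libraries were made, and the values are whole-number counts of reads on the exons of each gene.

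GDF10 proteins are secreted ligands of the transforming growth factor beta (TGF-beta) superfamily and form a subgroup with BMP3, a bone morphogenetic protein that in mammals restrains bone growth. FOXA2, also called hepatocyte nuclear factor 3-beta, is a forkhead transcription factor that opens chromatin in early endoderm and is needed in mouse embryos for the node, notochord and floor plate. In later life, FoxA factors are known for their part in liver, pancreas and lung.

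The name of each member was checked against the RefSeq gene table for assembly Coco_2.0. Identifier 108262421 carried the symbol gdf10a there, with prdm8 and ptpn20 as neighboring genes. Identifier 108257557 carried no symbol other than LOC108257557, and its neighbors were pax1b and LOC108258054. RefSeq gave the symbol foxa2 to another gene, 108270451, which lies next to prkd3. The FOXA2 of the study is therefore called LOC108257557 below, and foxa2 stands for the gene that RefSeq names so. No other gene overlapped the span of either member in this annotation, which may differ from the one used for counting. Reads shared with a paralog cannot be told apart, because the handling of such reads is not given in the sources used here.

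Total counts per library lay between 4349807 and 16097718. Levels are given in counts-per-million (CPM), scaled between libraries by the trimmed mean of M values (TMM), a method that lines up the bulk of the genes. In terms of library totals, 3 counts corresponded to 0.186 to 0.690 CPM, and intervals for counts cover counting error only. Of the marker genes of muscle, neurons, liver, epidermis and red blood cells in the table, all but 1 of muscle had counts in every library, as whole animals would give. The summed level of 10 liver genes was 10613 to 11032 CPM at 2 dpf and 3352 to 7430 CPM later. From 2 to 5 dpf, 3 of them rose and 3 fell by the call defined below, against 21.3% and 11.9% of all genes. The sum of 9 neuron genes was 183 to 189 CPM at 2 dpf and 617 to 1055 CPM later, and that of 5 epidermis genes 1572 to 1767 and 816 to 1521 CPM. The summed level of 9 skeletal muscle genes was 937 to 1106 CPM at 2 dpf and 12077 to 26021 CPM later, and that of 4 red blood cell genes went from 2997 to 3803 CPM at 2 dpf to 174 to 771.0 CPM later. In the latter list, hbae3, a hemoglobin gene, and slc4a1a fell from 2 to 5 dpf, by a log2 of -11.80 and -2.0, while alas2 and epb41b had 0.07 and -0.05. These markers moved with age beside every level below, and their part in it was not tested. In RNA from whole bodies, fewer cells of a type and less RNA per cell cannot be told apart.

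The level of gdf10a was highest in both pools of 2 dpf, at 157 and 139 CPM in replicates 1 and 2, from 1481 and 1335 counts. At 5 dpf it was 22.1 and 23.5 CPM, at 6 dpf 17.8 and 17.3 CPM, and at 7 dpf 14.7 and 19.0 CPM. At 8 dpf it was 13.5 and 10.6 CPM, at 9 dpf 7.89 and 11.1 CPM, and at 10 dpf 10.1 and 3.98 CPM. No later library came near those of 2 dpf. The pools of 5 dpf lay above those of 6 dpf and the pools of 7 dpf above those of 8 dpf, and the other neighboring stages overlapped. The share of all genes with such an order was not computed, and neither of these steps passed the test described below. The lower library of 2 dpf was 5.92 times the highest of the other 12, whose median was 14.1 CPM.

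LOC108257557 had the same outline at fewer counts. It stood at 25.7 and 23.9 CPM at 2 dpf, from 242 and 229 counts. At 5 dpf it was 2.93 and 3.86 CPM, at 6 dpf 3.50 and 3.99 CPM, and at 7 dpf 2.14 and 2.97 CPM. Both pools of 2 dpf were again far above every later pool, by at least 5.99 times. At 8 dpf it was 2.25 and 3.0 CPM, at 9 dpf 1.27 and 1.48 CPM, and at 10 dpf 1.69 and 0.996 CPM. These later values rest on 8 to 41 counts per library, so the counting intervals of libraries of neighboring stages overlapped. The value of 1.27 CPM at 9 dpf, for instance, came from 9 counts and has an exact Poisson interval (95%) of 0.580 to 2.41 CPM.

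**Figure D1:**
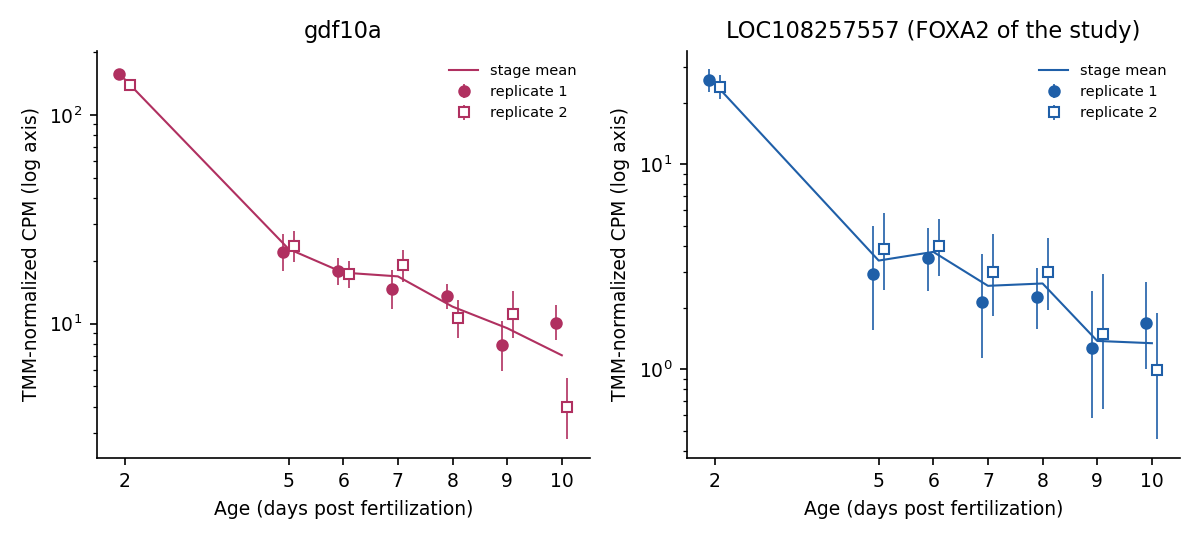
TMM-normalized CPM on log axes of gdf10a (left) and LOC108257557 (right) against age in dpf, with replicate 1 as filled circles, replicate 2 as open squares, exact Poisson intervals (95%) as bars and the stage means joined by a line. Both genes were highest at 2 dpf, at 157 and 139 CPM and at 25.7 and 23.9 CPM, and every later library lay at or below 23.5 and 3.99 CPM, respectively.

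As the plot of levels by age shows, both curves were steep between 2 and 5 dpf, at -0.90 per day on the log2 scale for gdf10a and -0.96 for LOC108257557, against -0.34 and -0.27 per day between the means of 5 and 10 dpf. The single step of LOC108257557 from 8 to 9 dpf, at -0.91, was close to that early rate. It was the largest of its steps after 5 dpf, rests on 9 and 8 counts at 9 dpf and did not pass the test described below (edgeR adjusted p = 0.222). The study also lists lower mapping rates for 9 than for 8 dpf, and their part in this step was not tested. The mean of gdf10a went from 148 ± 12.7 CPM (SD, n = 2) to 22.8 ± 1.01 CPM (SD, n = 2), which left 15.4% of the 2 dpf level. The mean of LOC108257557 went from 24.8 ± 1.28 CPM (SD, n = 2) to 3.40 ± 0.66 CPM (SD, n = 2), which left 13.7%. Fitted across all genes, the log2 fold change from 2 to 5 dpf was -2.70 (SE 0.29) for gdf10a and -2.84 (SE 0.27) for LOC108257557. Of 20329 genes that passed the low-count filter, 259 had a lower log2 fold change than gdf10a and 229 a lower one than LOC108257557, which places both among the lowest 1.27% and 1.13%. Against the mean of the 6 later stages, the difference was -3.48 (SE 0.17) and -3.41 (SE 0.16) on the log2 scale.

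The study lists lower mapping rates for the libraries of 5, 7 and 9 dpf than for the others, so the drop was also read against 6 dpf. There the log2 fold change from 2 dpf was -3.08 (SE 0.29) for gdf10a and -2.72 (SE 0.24) for LOC108257557. Both drops were thus of similar size in libraries on the same side of that division.

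Whether the decline went on after the 2 dpf libraries was asked with a slope over the stage means of 5 to 10 dpf, given as the log2 change over these 5 days and called the larval trend. A differentially expressed gene (DEG) had a log2 fold change of 1 or more in either direction and an adjusted p under 0.05, from the quasi-likelihood test of edgeR with Benjamini-Hochberg adjustment over 20329 genes. The p-values measure the spread between pools of fish of a stage, which the study formed by dividing randomly selected animals of that time point. The spread between spawns or repeat rearings was not measured separately. Both members were downregulated along the larval trend, in which 24% of all genes tested were DEGs and 9.39% of all genes tested were lower DEGs. The trend of gdf10a was -1.65 (SE 0.27, edgeR adjusted p = 0.000406), or -0.33 (SE 0.054) per day. The trend of LOC108257557 was -1.57 (SE 0.28, edgeR adjusted p = 0.000801), or -0.31 (SE 0.057) per day. Only 425 and 485 genes, respectively, had a lower trend. The median trend of all genes was 0.02 under TMM and 0.13 with the size factors and fit of DESeq2, and both members were downregulated under either.

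Between the first and last of these stages, where 31.5% of genes were DEGs and 13.6% were lower, both members were downregulated as well. The mean of gdf10a went from 22.8 CPM at 5 dpf to 7.05 ± 4.34 CPM (SD, n = 2) at 10 dpf, a log2 fold change of -1.67 (SE 0.32, edgeR adjusted p = 0.00114). The mean of LOC108257557 went from 3.40 CPM to 1.34 ± 0.49 CPM (SD, n = 2), a log2 fold change of -1.33 (SE 0.34, edgeR adjusted p = 0.00583). At 10 dpf, 4.76% of the 2 dpf level was left for gdf10a and 5.41% for LOC108257557. The call of LOC108257557 depended on single libraries, since without replicate 2 of 5 dpf its log2 fold change was -1.06 (edgeR adjusted p = 0.0895) and without replicate 2 of 10 dpf it was -0.99, short of the fold required.

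No step between neighboring stages after 5 dpf passed the test for either member. For gdf10a, the steps had log2 fold changes of -0.38, -0.06, -0.47, -0.37 and -0.40 from 5 dpf to 10 dpf, with edgeR adjusted p between 0.388 and 0.935. For LOC108257557, they were 0.12, -0.54, 0.0013, -0.91 and -0.0041, with edgeR adjusted p between 0.222 and 0.999. Each of these steps crosses the division in mapping rate, and the part of that division in them was not tested. The steps of -0.54 and -0.91 of LOC108257557 led into 7 and 9 dpf, stages with the lower rates. The share of DEGs among all genes in these comparisons was 9.9%, 2.61%, 2.24%, 0.738% and 1.29%. All 5 steps of gdf10a pointed down, although the sign of the steps from 6 to 7 and from 9 to 10 dpf changed when a library was left out. The largest step of LOC108257557, from 8 to 9 dpf, had an unadjusted p of 0.0220 in the edgeR fit. The order of the stage means of gdf10a was the order of age, and that of LOC108257557 was the order of age apart from 5 and 6 dpf and from 7 and 8 dpf, whose pools overlapped.

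The decline was also present on either side of the division in mapping rate. Within 5, 7 and 9 dpf, where 20.3% of genes were DEGs and 7.67% were lower, the slope over 5 days was -1.60 (SE 0.41, edgeR adjusted p = 0.0132) for gdf10a and -1.65 (SE 0.46, edgeR adjusted p = 0.0185) for LOC108257557. Within 6, 8 and 10 dpf, where 19% were DEGs and 8.67% were lower, it was -1.62 (SE 0.39, edgeR adjusted p = 0.00953) and -1.81 (SE 0.38, edgeR adjusted p = 0.00501). The 4 slopes lie within an SE of each other. Steps between neighboring stages of a side did not pass the test, where 4.48%, 1.65%, 2.93% and 5.72% of genes did. From 5 to 7 dpf they were -0.44 and -0.42 for gdf10a and LOC108257557, from 7 to 9 dpf -0.84 and -0.91, from 6 to 8 dpf -0.53 and -0.54, and from 8 to 10 dpf -0.76 and -0.91.

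**Figure D2:**
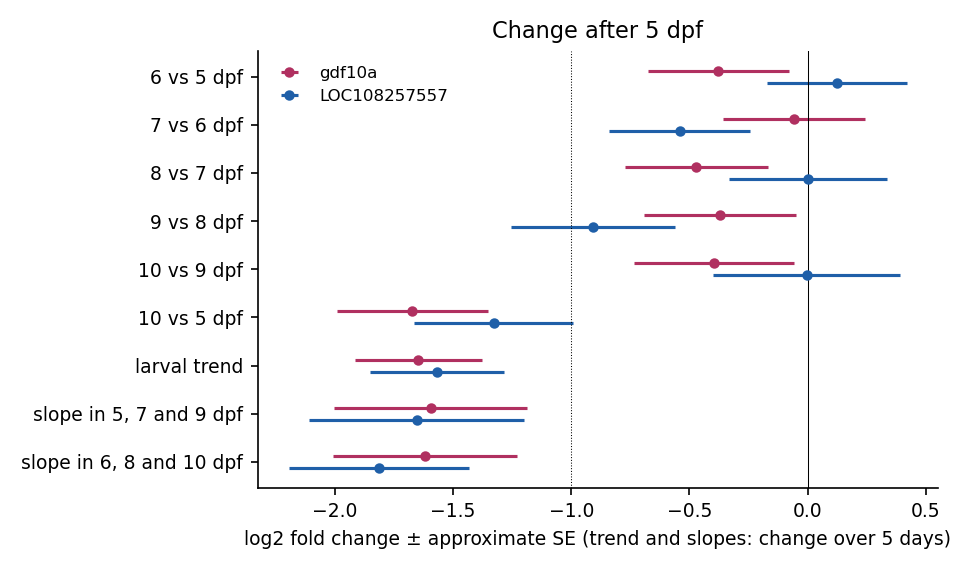
Log2 fold change with its approximate SE (bars) of gdf10a (red) and LOC108257557 (blue) in each comparison after 5 dpf, where trend and slopes are the change over 5 days and the dotted line marks the fold required of a DEG. The steps between neighboring stages lie between -0.91 and 0.12 and the trends and slopes between -1.81 and -1.57.

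The plot of changes after 5 dpf shows steps of gdf10a between -0.47 and -0.06. LOC108257557 fell mainly from 6 to 7 dpf (-0.54) and from 8 to 9 dpf (-0.91). The steps add up to a decline, at -1.67 for gdf10a and -1.33 for LOC108257557 from 5 to 10 dpf. Only the estimates lie past the fold required. Neither passed a test against a log2 change of 1 (edgeR glmTreat adjusted p = 0.0624 and 0.291). The 2 pools of 10 dpf differed in this decline. Replicate 2 of 10 dpf had 3.98 CPM of gdf10a against 10.1 CPM in replicate 1, and 0.996 against 1.69 CPM of LOC108257557. It was also low for genes of the skeleton, with 13803 CPM summed over 23 bone and cartilage genes against 46124 CPM in replicate 1, while the 4 libraries of 8 and 9 dpf had 42236 to 49711 CPM. For col2a1a, the cartilage collagen, it had 468 CPM against 3116 CPM. Replicate 1 of 9 dpf was likewise low in cartilage genes beside replicate 2, with 1475 against 5527 CPM of col2a1a and 32.6 against 389 CPM of matn1, though not in the sum over 23 genes. There gdf10a had 7.89 against 11.1 CPM, and without that library the larval trend was -1.5 for gdf10a and -1.47 for LOC108257557. The part of these differences between pools in the level of either member was not tested. Without replicate 2 of 10 dpf, the larval trend was -1.24 for gdf10a and -1.31 for LOC108257557, and both stayed DEGs. Without replicate 1 of 10 dpf, the log2 fold change of gdf10a from 5 to 10 dpf was -2.52, and that from 9 to 10 dpf was -1.23 with an edgeR adjusted p of 0.00598.

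The members were then compared with each other within each library, by the log2 ratio of LOC108257557 to gdf10a after 0.5 was added to each CPM. Transcript lengths were not at hand, so the size of the ratio does not say which gene made more transcripts, and only its change is read. At 2 dpf the ratio was -2.59 and -2.52. In the later libraries it lay between -2.72 and -1.58 with a median of -2.31, a range that holds both values of 2 dpf. The mean was -2.40 ± 0.26 (SD, n = 6) over 5 to 7 dpf and -2.11 ± 0.39 (SD, n = 6) over 8 to 10 dpf. The difference of 0.28 did not pass a 2-sided exact permutation test (p = 0.180), which takes pools of a stage as independent. It grew to 0.43 (exact permutation p = 0.0238) when 2 CPM was added in place of 0.5, a value close to the level of LOC108257557 itself. At 10 dpf the ratio with 0.5 CPM added was -2.28 and -1.58, above both values of 2 dpf. LOC108257557 had only 1.69 and 0.996 CPM there, so the 0.5 added raises the ratio more than at 2 dpf. This difference is therefore not read as a shift between the members.

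Relatives of gdf10a took the opposite course between 2 and 5 dpf. Its paralog gdf10b (108273395) had 2.44 and 2.30 CPM at 2 dpf and 3.43 to 11.7 CPM later. From 2 to 5 dpf, where 33.2% of genes were DEGs and 21.3% were higher, gdf10b was upregulated by 2.03 on the log2 scale (SE 0.43, edgeR adjusted p = 0.00162), while gdf10a had -2.70. The other ligand of the subgroup, bmp3 (108255986), had 4.46 and 3.96 CPM at 2 dpf and 9.74 to 27.5 CPM later, and was upregulated by 1.84 (SE 0.39, edgeR adjusted p = 0.00187). The span of bmp3 overlaps prkg2 in RefSeq, so its reads are less certain. After 5 dpf, neither passed the test, with a larval trend of -0.24 for gdf10b (edgeR adjusted p = 0.538) and 0.28 for bmp3 (edgeR adjusted p = 0.430). The sign of either value changed with a single pool of 10 dpf, to 0.20 for gdf10b without replicate 2 and to -0.39 for bmp3 without replicate 1. That replicate 2 was low for both, at 3.43 against 9.84 CPM of gdf10b and 9.74 against 27.2 CPM of bmp3, as it was for gdf10a.

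Of the FoxA relatives of LOC108257557, foxa2 and foxa1 had lower levels at 5 than at 2 dpf too, with smaller fold changes than its own, and the difference in fold change was not tested. The gene that RefSeq names foxa2 had 5.52 and 6.99 CPM at 2 dpf and 2.35 to 4.32 CPM later, a difference of -1.05 on the log2 scale (SE 0.33, edgeR adjusted p = 0.0178) against -2.84 for LOC108257557. Its call was lost without replicate 2 of 2 dpf (-0.87, edgeR adjusted p = 0.102) or of 5 dpf (-0.69, edgeR adjusted p = 0.209). For foxa1, a partner of FOXA2 in mouse liver and lung development, the levels were 5.84 and 7.20 CPM at 2 dpf and 3.09 to 6.06 CPM later, with a log2 fold change of -0.99 (SE 0.30, edgeR adjusted p = 0.0155) that was just short of the fold required. It passed with DESeq2 (-1.01, adjusted p = 0.0368), with the RLE scaling of DESeq2 in edgeR (-1.0, adjusted p = 0.0148) and without replicate 1 of 2 dpf (-1.13, edgeR adjusted p = 0.0234). Along the larval trend, LOC108257557 was downregulated, while foxa2 had 0.46 (edgeR adjusted p = 0.191) and foxa1 had 0.65 (edgeR adjusted p = 0.0460), both under the fold required. A further gene, foxa (108268493), had 12 and 20 counts at 2 dpf and 0 to 7 counts later. It did not pass the low-count filter, and its mean went from 1.68 to 0.225 CPM between 2 and 5 dpf, a ratio of 7.46 beside 7.30 for LOC108257557, on 2 and 0 counts at 5 dpf. Paralog foxa3 had no line in the table of counts and could not be analysed.

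**Figure D3:**
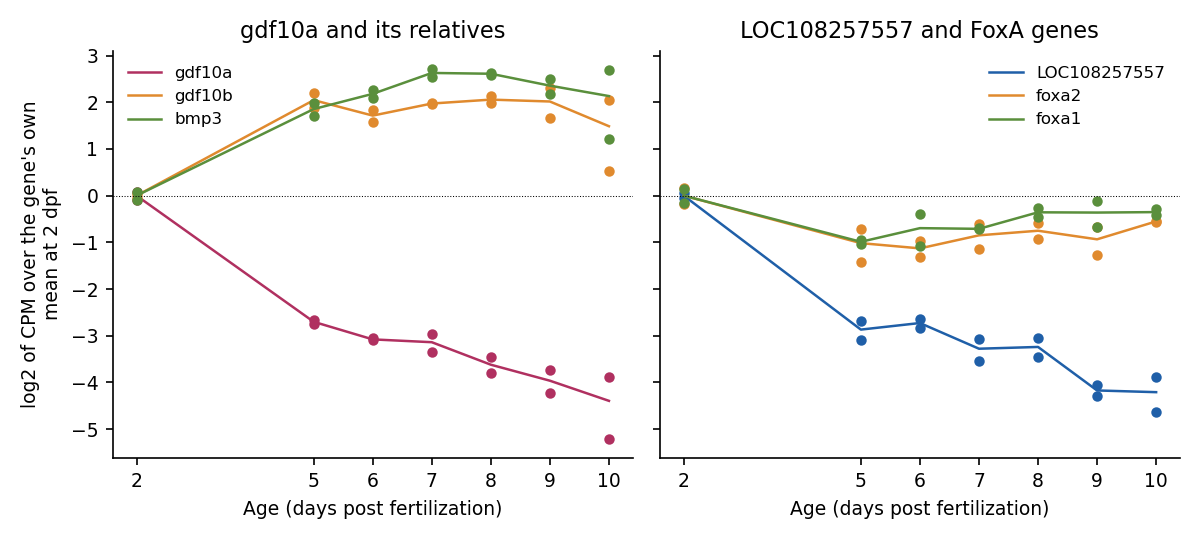
Log2 of CPM over the gene's own mean at 2 dpf against age in dpf, for gdf10a, gdf10b and bmp3 (left) and for LOC108257557, foxa2 and foxa1 (right), with points for libraries and lines through stage means. At 5 dpf gdf10b and bmp3 lay above 0 and gdf10a below, and foxa2 and foxa1 lay near -1 where LOC108257557 was below -2.

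The plot of each gene over its own 2 dpf level shows how far the members left the relatives drawn there. The low-count gene foxa is not drawn, and its ratio of 7.46 between 2 and 5 dpf was close to the 7.30 of LOC108257557. In terms of ratios within a library, gdf10b to gdf10a went from -5.74 and -5.64 on the log2 scale at 2 dpf to -1.04 ± 0.25 (SD, n = 6) over 5 to 7 dpf and -0.13 ± 0.15 (SD, n = 6) over 8 to 10 dpf. The ratio of foxa2 to LOC108257557 went from -2.12 and -1.70 to -0.04 ± 0.54 (SD, n = 6) and then 0.94 ± 0.52 (SD, n = 6). Both pairs were chosen after the levels had been seen, so these shifts carry no test. In both pairs, the ratio was lower in the pools of 2 dpf than in every later library. The study tied both members to 2 dpf in these same libraries, so this order is a description. The share of gene pairs with such an order was not computed. From 2 to 5 dpf the level of foxa2 itself fell, by a log2 fold change of -1.05.

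**Figure D4:**
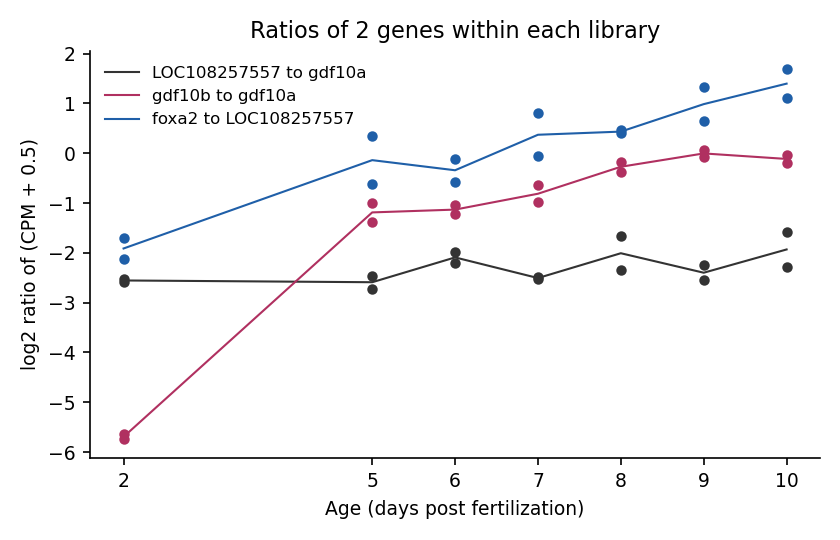
Log2 ratio of CPM + 0.5 within each library against age in dpf for LOC108257557 to gdf10a (black), gdf10b to gdf10a (red) and foxa2 to LOC108257557 (blue), with points for libraries and lines through stage means. The black ratio stays between -2.72 and -1.58 and both other ratios are lowest at 2 dpf.

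The plot of ratios sets the ratio of the 2 members beside the higher ratios of both paralog pairs after 2 dpf. Lists of other genes of the signaling path of gdf10a were read for the step from 2 to 5 dpf. Of 27 other TGF-beta superfamily ligands tested, 11 were higher at 5 than at 2 dpf and 5 were lower, with a median log2 fold change of 0.44. Over all genes the median was 0.02, and 21.3% were higher and 11.9% lower DEGs, the shares to set beside each list here. The most abundant that rose were the TGF-beta genes tgfb2 (1.45) and tgfb3 (1.29), and those that fell were gdf11 (-1.67) and bmp5, a bone morphogenetic protein, which went from 101 to 40.6 CPM (-1.31). Of 17 receptors, 1 was higher and 3 were lower (median -0.0042), with bmpr2a, a BMP receptor, at 3.04 and, lower, the activin receptor acvr2ba at -2.38 and the TGF-beta receptor tgfbr1b at -1.42. Of 26 inhibitors, 7 were higher and 2 lower (median 0.40). Most are secreted or membrane proteins, but the intracellular smad6a, smad6b and smad7 were counted here and not among the SMAD genes below. The decoy receptor gene bambia fell from 147 to 47.9 CPM (-1.62). Its copy bambib had -1.08, and ltbp3 and twsg1a, which bind ligands or hold them in the matrix, had 1.31 and 1.38. Of 20 SMAD and early target genes, 3 were higher and 1 lower (median -0.08), with smad9, a SMAD of the BMP branch, at -1.45 and id4 and skila at 1.26 and 1.01. Of 23 bone and cartilage genes, 10 were higher and 0 lower (median 1.57), led by col10a1a, a collagen of growing cartilage and bone, at 6.43 and the cartilage matrix gene matn1 at 9.12, which had 508 CPM at 5 dpf and 56.0 CPM at 6 dpf.

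On the side of LOC108257557, lists of forkhead, midline and endoderm genes were read in the same way. Of 48 genes outside FoxA with a symbol that starts with fox, 9 were higher at 5 than at 2 dpf and 2 lower (median 0.42). Over all genes, 21.3% were higher and 11.9% lower. In the list, foxo3b had 1.32, foxn3 1.06, foxp1a -1.21 and foxl1 -1.59, beside -2.84 for LOC108257557. It is called the other forkhead genes below, although it also holds foxred1 (-0.93) and foxred2 (0.55), which are not forkhead genes and were not DEGs. Of 28 genes of the Hedgehog pathway and the floor plate, 2 were higher and 9 lower (median -0.45). The floor plate gene spon1b, an F-spondin, went from 226 to 51.8 CPM (-2.12) and had 80.5 CPM at 6 dpf. The ligand gene dhh and the F-spondin gene spon1a were higher, at 2.2 and 2.05. Of 12 notochord genes, 5 were higher and 1 lower (median 0.63), with the collagen genes col2a1a at 2.31 and col9a2 at 3.05 and the matrix gene matn4 at -1.10. Of 24 endoderm regulators, 3 were higher and 8 lower (median -0.68), with gata6, an endoderm GATA factor, at -3.72 from 84.7 to 6.37 CPM and with 22.5 CPM at 6 dpf. The liver factor cebpa had -1.89, and neurod1 and insm1a, of endocrine cells and neurons, had 1.08 and 1.07. Of 23 genes of proteins secreted by the liver, 6 were higher and 5 lower (median -0.12), among them rbp4 at 2.25, ahsg1 at 1.09, apoba at -1.64 and fetub at -2.57. The 2 tested FoxA relatives held 1 lower DEG (median -1.02). The calls of skila, twsg1a, bambib, foxn3, neurod1, ahsg1, col2a1a and matn4 were lost when 1 library was left out.

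Read against 6 dpf instead, where 23.5% of genes were higher DEGs and 9.64% lower, the lower DEGs were 6 among the ligands, 2 among the receptors, 1 among the inhibitors, 6 in the Hedgehog list and 7 among the endoderm regulators. The lower DEGs were 4 among the other forkhead genes and 8 among the liver genes. The higher DEGs were 12 among the ligands, 11 among the inhibitors, 4 among the receptors, 13 among the other forkhead genes and 16 in the bone and cartilage list. There were also 5 higher DEGs among the endoderm regulators, 5 among the liver genes and 2 in the Hedgehog list. The notochord list had 4 higher and 1 lower, and the SMAD and target genes 3 and 1. Each list held the same tested genes as at 5 dpf. The median of the Hedgehog list was -0.0053 there against -0.45 at 5 dpf, while gdf10a and LOC108257557 had -3.08 and -2.72.

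**Figure D5:**
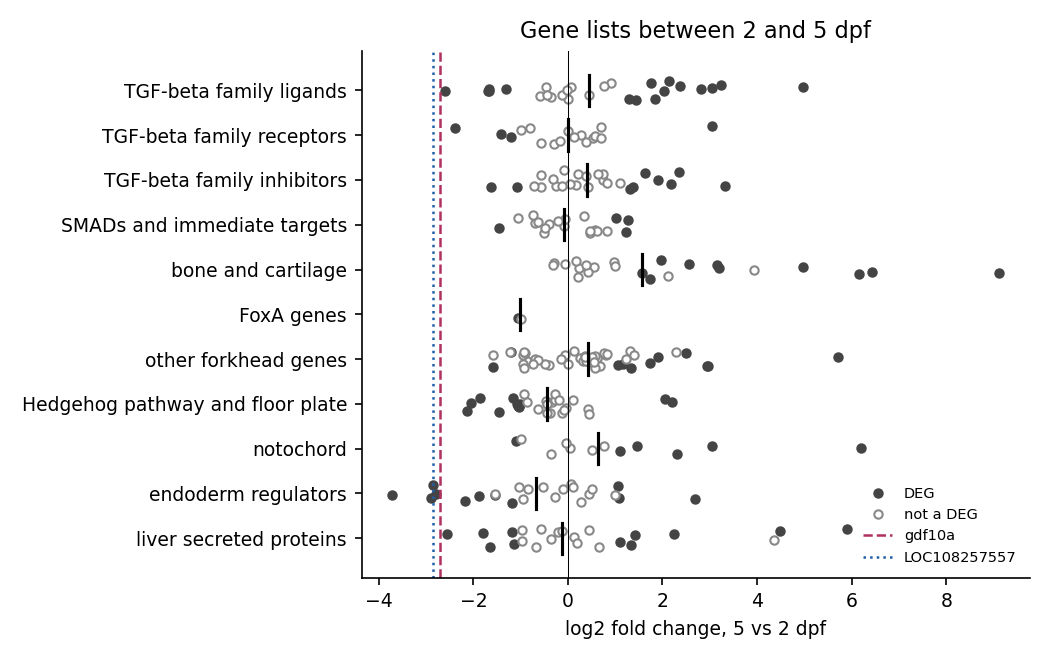
Log2 fold change from 2 to 5 dpf of each tested gene in 11 lists (rows), with DEGs as filled points, other genes as open points and the list's median as a black bar. The vertical lines mark gdf10a at -2.70 and LOC108257557 at -2.84, which lie to the left of most points of every list.

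In the plot of lists, the lines of both members stand far to the left of every list's median. Single genes of the lists lay near or beyond these lines, such as the ligand gene gdf3 at -2.61 and gata6 at -3.72. The larval trend of gdf3 was -2.0. Along the larval trend, where 14.6% of genes were higher DEGs and 9.39% lower, the medians of the lists were closer to 0 than the members. The ligands had 2 higher and 3 lower DEGs (median 0.21), the receptors 3 and 0 (0.24), the inhibitors 4 and 2 (0.06), and the SMAD and target genes 1 and 0 (0.11). The other forkhead genes had 2 and 2 (0.19), the Hedgehog and floor plate genes 1 and 1 (0.13), the endoderm regulators 7 and 0 (0.37), and the liver genes 8 and 5 (-0.16). The FoxA relatives had no DEG (0.56). Without replicate 2 of 10 dpf, the median was 0.0017 for the ligands, 0.23 for the inhibitors, 0.04 for the other forkhead genes and -0.12 for the liver genes. That fit tested 32 ligands and 50 other forkhead genes, against 27 and 48 with all libraries, so these sets differ. Among the marker lists, the 4 red blood cell genes had 0 higher and 1 lower DEG. Of the other 11 lists, the notochord genes alone had lower DEGs without higher ones, at 5 of 12 (-0.94). The median of the notochord list was -0.59 without replicate 2 of 10 dpf, and its number of lower DEGs depended on that library. This list also holds collagen genes of cartilage, of which col9a2 was 1 of the 5 lower DEGs (-1.55) and col2a1a was not a DEG (-1.01). The level of col9a2 was 33.0 CPM in replicate 2 of 10 dpf against 203 CPM in replicate 1. At 9 dpf it was 81.9 CPM in replicate 1 against 386 CPM in replicate 2. The part of these pools in the trend of the list was not tested. The bone and cartilage genes had 8 higher and 3 lower DEGs (0.68), and a median of 0.67 without that library.

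The genes whose level was most like that of each member were ranked by the Pearson correlation of log2(CPM + 1). Over 14 libraries, which share the large gap between 2 dpf and later, gdf10a was followed most closely by cdc25b (r = 0.991), a phosphatase that starts mitosis, then by pum3 (0.990), nsun5 (0.989) and ddx47 (0.988), which act on RNA or ribosomal RNA, and by the kinase gene ptk2bb (0.985). The gene cdc25b went from 301 CPM at 2 dpf to 93.1 at 5 dpf and 41.6 CPM at 10 dpf. For LOC108257557 they were naalad2 (0.989), a peptidase gene, lama1 (0.989), a laminin chain of basement membranes, cad (0.985), the enzyme of pyrimidine synthesis, ephx5 (0.984) and tmem144a (0.984). Of these, lama1 went from 1277 to 103 and then to 62.2 CPM. The correlation of the members with each other was 0.974, which ranked LOC108257557 at 53 of 20328 genes for gdf10a and gdf10a at 33 for LOC108257557.

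Without the 2 dpf libraries, and so without the large gap after 2 dpf, the members had a lower correlation. This alone does not say that the courses of the members parted. Over the 12 libraries of 5 to 10 dpf their correlation was 0.858, at rank 1812 for gdf10a and 488 for LOC108257557, whose counts there were 8 to 41 per library. The named genes most like gdf10a were then trap1 (0.986), a mitochondrial chaperone, yars1 (0.984), a tRNA synthetase, and metap2b (0.984), an aminopeptidase. Those most like LOC108257557 were pold1 (0.960), a subunit of the replicative DNA polymerase delta, tubgcp2 (0.960), of the gamma-tubulin complex, and arhgap11a (0.956). None of these genes was among those named for all 14 libraries.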

How the data were processed

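Per the labels and the study's methods, the authors depleted ribosomal RNA, trimmed reads with Trimmomatic 0.36, mapped them with STAR 2.7.0, counted reads on exons with HTSeq and deposited raw counts. The submitters' processing notes also name CASAVA 1.9.1, FastQC and DESeq2. The study cites a publication for the catfish reference genome; the name of the build and the strand setting are not given in the sources used here, so no coordinates are printed. Of 23235 lines in the table, 7 carried 3 repeated identifiers and were added up, giving 23231 genes. RefSeq (Coco_2.0) gave 21834 of them a symbol.

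Counts were fitted with edgeR 4.0.16 in R 4.3.3 (TMM, low-count filter by stage, quasi-likelihood, 1 mean per stage over 14 libraries), and 20329 genes were tested. Both members passed the filter. Standard errors are approximate, from the fold change and the F statistic. The code was tested on simulated data. Ratios and likeness were computed with Python 3.11.15, pandas 2.3.3 and scipy 1.17.1.

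Named were the members, gdf10b, bmp3, the FoxA genes, for each member the 5 genes most alike over 14 and the 3 over 12 libraries (symbols other than LOC), and in each of 11 gene lists the 2 DEGs between 2 and 5 dpf with the highest mean CPM in either direction. A gene that this rule names is not reported here. The gene col2a1a was singled out in replicate 2 of 10 dpf after its values were seen, and so was col9a2. The ligand gene gdf3 was also named after its values were seen. Also named were foxred1, foxred2, smad6a, smad6b and smad7, to say what their lists hold. Marker lists of 5 cell types served only to check the tissue. Members and lists were chosen with earlier results of these data known. Alternatives were DESeq2 1.42.0, RLE scaling, other filters, a replicate block, leaving out each library, the compared stages only and glmTreat, which tests whether a change exceeds 1 on the log2 scale. Reading the lists at 6 dpf and without replicate 2 of 10 dpf was added after seeing the data.

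Same-numbered libraries mostly did not deviate in the same direction. Over 21 pairs of stages the correlation of their deviations was -0.585 to 0.268 (median -0.002), and 2 pairs were over 0.1. The lowest value is of libraries that deviated in opposite directions. A difference between pools that does not follow the replicate number is therefore not covered by this check. The correlation of log2 CPM between replicates was 0.931 at 10 dpf, 0.962 at 9 dpf and 0.983 to 0.989 at the other stages.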

Additional observations from a re-analysis of the deposited data

How the results depend on the processing

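The larval trend of both members kept its direction and its call with DESeq2, RLE scaling, no filter, a minimum of 10 counts in 2 libraries, the replicate block and the 5 to 10 dpf libraries alone, and without each of the 14 libraries, at -2.26 to -1.24 for gdf10a and -1.90 to -1.31 for LOC108257557. The exception was glmTreat, which tests for a change beyond 1 on the log2 scale and in which the adjusted p was 0.0531 and 0.0959 for the trend (-1.65 and -1.57) and 0.0624 and 0.291 from 5 to 10 dpf (-1.67 and -1.33). That test called 3858 genes in place of 6757 from 2 to 5 dpf, 1440 in place of 4880 along the trend and 2109 in place of 6395 from 5 to 10 dpf.

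From 5 to 10 dpf, leaving out a library gave -2.52 to -1.14 for gdf10a and -1.78 to -0.99 for LOC108257557, whose change was -1.30 (adjusted p = 0.0697) on the compared stages only. From 2 dpf, leaving out a library gave -3.05 to -2.64 for LOC108257557 at 5 dpf and -2.85 to -2.65 at 6 dpf. Steps near 0 changed sign: LOC108257557 had -0.10 to 0.31 from 5 to 6 dpf, -0.20 to 0.26 from 7 to 8 dpf (-0.014 on the compared stages only) and -0.45 to 0.34 from 9 to 10 dpf without single libraries, and in the last step 0.026 with DESeq2, 0.029 with RLE, 0.032 without a filter and 0.0071 on the compared stages only. For gdf10a the range was -0.26 to 0.11 from 6 to 7 dpf and -1.23 to 0.14 from 9 to 10 dpf. The trend of gdf10b lay between -0.94 and 0.20 and that of bmp3 between -0.39 and 0.72 without single libraries, the extremes being the fits without either pool of 10 dpf. The ratio of the members rose by 0.43 with 2 CPM added. The causes were not tested beyond the fewer counts or libraries in use.

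With replicate numbers fitted as a block, the trend was -1.66 (adjusted p = 0.000799) for gdf10a and -1.55 (adjusted p = 0.00153) for LOC108257557, and no call of a member changed. Depth limits LOC108257557, at 8 to 41 counts per library after 2 dpf.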
